A study of Mus musculus with 6 samples.

Results

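The dystrophin glycoprotein complex was followed in mouse hearts through 8 of its genes, namely Dmd, Utrn, Dag1, Sgca, Sgcb, Sgcd, Dtna and Lama2. They were picked by name, and each was matched to array probes through the RefSeq accession printed beside the probe, which gave 14 probes among 55608 kept and 8 genes among 20020 genes and unnamed features tested. RNA of whole hearts was hybridised in 1 colour (Cy3) to Agilent mouse arrays, 1 array per heart. The KO-labelled group held 3 hearts of mice with the genotype PHD2/3 f/f; Cre+/-, and the control group held 3 hearts of PHD2/3 f/f; Cre-/- mice. All were C57/B6 mice of 8 weeks and all carried the floxed PHD2/3 alleles, so that the groups differed by Cre. The labels name neither the Cre driver nor the deleted exons, and they give 2 different RNA kits, one of them a blood kit with globin removal. The hearts were labelled as biological replicates.

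The complex is the bridge that ties the actin cytoskeleton of a muscle cell to the basement membrane around it. Dystrophin holds actin on the inside, dystroglycan spans the membrane and binds laminin on the outside, the sarcoglycans sit beside dystroglycan as a membrane subcomplex, and dystrobrevin and the syntrophins join dystrophin as adaptors. Loss of single members causes muscular dystrophies and cardiomyopathies, because the membrane of the contracting cell is then easily torn. PHD2 and PHD3, the enzymes whose genes were floxed, are oxygen-dependent prolyl hydroxylases best known for marking the hypoxia-inducible factors (HIF) for destruction.

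Signals are given on the log2 scale relative to the 75th percentile of their own array, so that 0 is the signal at that percentile. The arrays had 46.3 to 51.0% of probes well above background. They shared 1 slide and 1 scan, but the KO-labelled arrays filled one row of it and the control arrays the other, so that position and group cannot be told apart. Correlations across genes were 0.976 to 0.987 among KO-labelled arrays, 0.983 to 0.993 among control arrays and 0.922 to 0.970 between them. Of the targeted genes, Egln1 (PHD2) had log2 signals of -0.39, 0.29 and 0.06 in KO-labelled hearts, against 1.27, 1.39 and 0.99 in control hearts, a difference of -1.23 (limma, adjusted p = 0.00653). Egln3 (PHD3) had 4.24, 4.62 and 4.77 in KO-labelled hearts, against 2.57, 2.44 and 2.69 in control hearts, a difference of 1.98 (adjusted p = 0.00166). The rise of Egln3 goes against its label at face value, and the labels do not say whether these probes lie in deleted exons, so the hearts are called KO-labelled throughout. In whole-heart RNA, fewer cells of a type and less RNA per cell cannot be told apart.

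The sarcoglycan genes differed among themselves in response, so the 250 bases before the RefSeq start of 3 of them are shown, 5′ to 3′ on the strand of the gene (mouse build GRCm38.p6, sequences from RefSeq). Sgca lies at chr11:94976328-94976577, Sgcb at chr5:73647738-73647987 and Sgcd at chr11:47379326-47379575, all on the minus strand. Capitals mark every match, on either strand, to the HIF core letters ACGTG or GCGTG, the E-box CANNTG, the GC box GGGCGG, the nuclear receptor letters AGGTCA, the TATA letters TATAAA and the M-CAT letters CATTCC.
Sgca: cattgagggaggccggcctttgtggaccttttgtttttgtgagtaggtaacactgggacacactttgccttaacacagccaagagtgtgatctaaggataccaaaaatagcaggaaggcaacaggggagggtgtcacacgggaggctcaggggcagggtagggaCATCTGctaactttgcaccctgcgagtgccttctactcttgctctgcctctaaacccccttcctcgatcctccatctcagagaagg
Sgcb: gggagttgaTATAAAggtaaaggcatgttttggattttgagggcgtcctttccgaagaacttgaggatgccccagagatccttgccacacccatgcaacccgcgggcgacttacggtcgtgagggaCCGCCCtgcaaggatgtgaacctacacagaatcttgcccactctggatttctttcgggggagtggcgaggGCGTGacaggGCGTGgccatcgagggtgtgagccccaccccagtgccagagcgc
Sgcd: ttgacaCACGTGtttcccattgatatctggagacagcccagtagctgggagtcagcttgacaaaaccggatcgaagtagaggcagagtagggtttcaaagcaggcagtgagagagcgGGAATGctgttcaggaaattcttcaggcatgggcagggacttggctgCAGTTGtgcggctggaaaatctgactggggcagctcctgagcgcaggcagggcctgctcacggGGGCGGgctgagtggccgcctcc
The Sgca window held 1 E-box, at position -86 relative to the start, and no match to the other 6 motifs. In the Sgcb window GCGTG was found 2 times, and the GC box and TATAAA 1 time each. In the Sgcd window CACGTG, an E-box that contains ACGTG on both strands, was joined by a second E-box, an M-CAT match and a GC box. Among 32851 mouse promoter windows of this length, 66.2% held an E-box, 32.7% a GC box, 28.2% GCGTG, 16.6% ACGTG, 14.0% AGGTCA, 12.6% CATTCC and 12.4% TATAAA. The matches describe the letters of these windows only.

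Between KO-labelled and control hearts, 3 of the 8 genes were lower in KO-labelled hearts (Sgca, Dtna and Dag1), none was higher (limma, also none at an unadjusted p under 0.05), and 5 did not pass (Dmd, Utrn, Sgcb, Sgcd and Lama2). The test was limma's moderated linear model with Benjamini-Hochberg adjustment over all 20020 genes and features, at a threshold of 0.05. Of those 20020, 39.1% passed in either direction, 23.0% as lower and 16.1% as higher in KO-labelled hearts, so that the 3 of 8 members called (37.5%) are a share near that of all genes called in either direction. Tested probe by probe, 3 of the 14 probes passed as lower, against 23.1% of all probes. After centring on the median of all genes and features, 2 of the 8 genes passed as lower, against 16.8% of all. The median log2 difference, KO-labelled minus control, was -0.23 over the 8 genes and -0.11 over all genes and features. That number of passing features, 7820, fell to 5142 without KO-labelled heart 3, 3987 without control heart 1 and 4122 without control heart 3. All 14 probes were well above background on all 6 arrays and none was saturated, so no member was left out by the filter on dim probes.

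**Figure D1:**
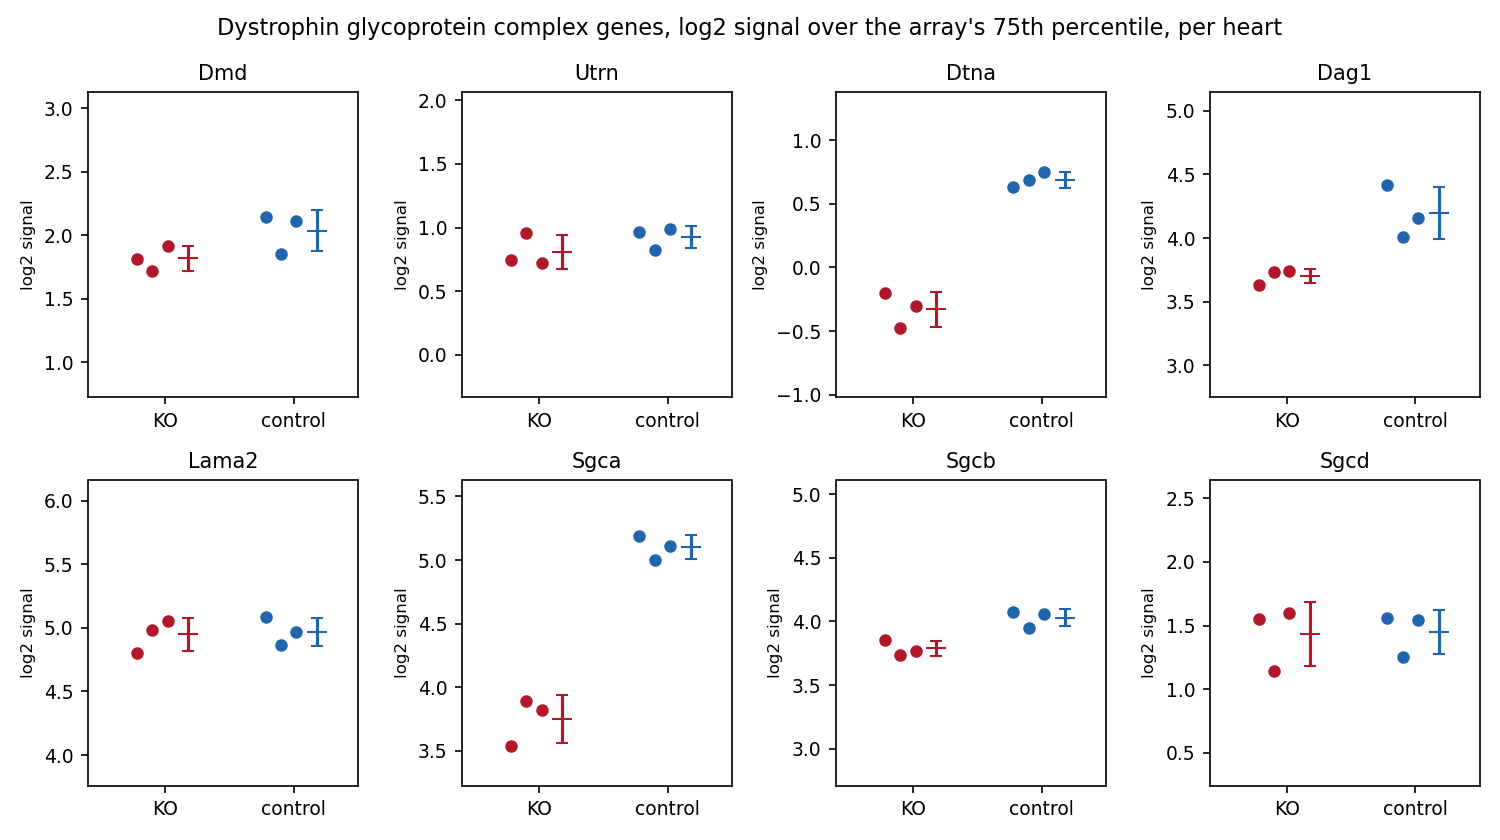
Log2 signal over the array's 75th percentile for the 8 genes, 1 point per heart, with KO-labelled hearts left and control hearts right in each panel. Crosses and bars give the mean and SD of 3 hearts, every panel spans the same length on its axis, and the groups stand clear of each other for Sgca, Dtna, Dag1 and, by a small margin, Sgcb.

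On the cytoplasmic side, the dystrophin gene itself showed no change past the threshold. Dmd (NM_007868), whose protein links actin to dystroglycan, had log2 signals of 1.82, 1.72 and 1.92 in KO-labelled hearts, against 2.14, 1.85 and 2.11 in control hearts. The highest KO-labelled heart lay above the lowest control heart, so the groups overlapped. The difference was -0.22 ± 0.13 (SE), with a 95% interval of -0.53 to 0.10 (limma, adjusted p = 0.226). The other 2 Dmd probes differed by -0.25 and -0.06, and neither passed (adjusted p = 0.201 and 0.790 over all probes). At the lower end of the interval for the main probe, Dmd in KO-labelled hearts would stand at 0.691 of its control level, and these hearts cannot tell that size from no change.

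Utrn (NM_011682) encodes utrophin, the autosomal relative of dystrophin that can take its place at the membrane. On the log2 scale Utrn signals were 0.74, 0.96 and 0.72 in KO-labelled hearts, against 0.96, 0.83 and 0.99 in control hearts. The groups overlapped, with KO-labelled heart 2 above control heart 2. The difference of -0.12 ± 0.12 had an interval of -0.41 to 0.18 (adjusted p = 0.471). The upper end of this interval is a 1.13-fold higher Utrn signal in KO-labelled hearts, under the main scaling only. With spike-in scaling on bright spots the estimate itself was 0.12. Within each array, Utrn minus Dmd was -1.08, -0.76 and -1.20 in KO-labelled hearts and -1.18, -1.02 and -1.13 in control hearts, which overlapped (exact permutation test, 2-sided, p = 0.7).

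Dtna was the cytoplasmic member that changed. Dtna (NM_010087) encodes dystrobrevin alpha, a relative of dystrophin that binds its end and carries syntrophins. For this gene the log2 signals were -0.20, -0.48 and -0.31 in KO-labelled hearts, against 0.63, 0.69 and 0.75 in control hearts. Every KO-labelled heart lay below the array's 75th percentile and every control heart above it. Dtna was 2.03-fold lower in KO-labelled hearts, a log2 difference of -1.02 ± 0.12 with an interval of -1.31 to -0.73 (limma, adjusted p = 0.00316). A fall of at least 1 on the log2 scale that also passed was seen in 8.42% of all genes and features. Dtnb, the gene of dystrobrevin beta, did not pass (0.13, adjusted p = 0.429).

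The difference between Dtna and its binding partner was also seen within arrays, in ratios that no constant per array can move. Dtna minus Dmd was -2.02, -2.20 and -2.23 in KO-labelled hearts, against -1.51, -1.16 and -1.36 in control hearts. The groups did not overlap and differed by -0.80, at the exact permutation p of 0.1 that is the smallest 3 hearts against 3 can give. Dtnb minus Dtna was higher in KO-labelled hearts by 1.15, again without overlap (exact p = 0.1). Across all genes and features, 55.9% had groups that did not overlap in one direction or the other.

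Dag1 (NM_010017), which encodes both the laminin-binding alpha and the membrane-spanning beta dystroglycan, was lower in KO-labelled hearts by a smaller step. Its log2 signals were 3.63, 3.73 and 3.74 in KO-labelled hearts, against 4.42, 4.01 and 4.16 in control hearts. The groups did not overlap, and the KO-labelled hearts lay closer together (SD 0.06) than the control hearts (SD 0.21). Dag1 was 1.41-fold lower, a log2 difference of -0.49 ± 0.14 with an interval of -0.83 to -0.16 (limma, adjusted p = 0.0320). This call depended on the hearts and the scaling: it was lost on leaving out any 1 of KO-labelled hearts 1, 2 and 3 or control hearts 1 and 3 (adjusted p 0.0624 to 0.105), with spike-in scaling (0.0881), without a filter on dim probes (0.112) and after centring on the median of all genes (0.0712). It was kept without control heart 2 (-0.59, adjusted p = 0.0191).

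Lama2 (NM_008481), the alpha chain of the main laminin of the muscle basement membrane and the ligand of alpha dystroglycan, showed no such difference. Its log2 signals were 4.80, 4.99 and 5.06 in KO-labelled hearts, against 5.08, 4.86 and 4.96 in control hearts. The ranges of the groups lay almost on top of each other. The difference was -0.02 ± 0.13 with an interval of -0.32 to 0.28 (adjusted p = 0.908), and a second probe differed by 0.11 (adjusted p = 0.532 over all probes). Its sign turned under several scalings, where it remained small. The receptor set against its ligand within each array, Dag1 minus Lama2, was -1.17, -1.26 and -1.32 in KO-labelled hearts, against -0.67, -0.85 and -0.81 in control hearts. These did not overlap and differed by -0.47 (exact p = 0.1).

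**Figure D2:**
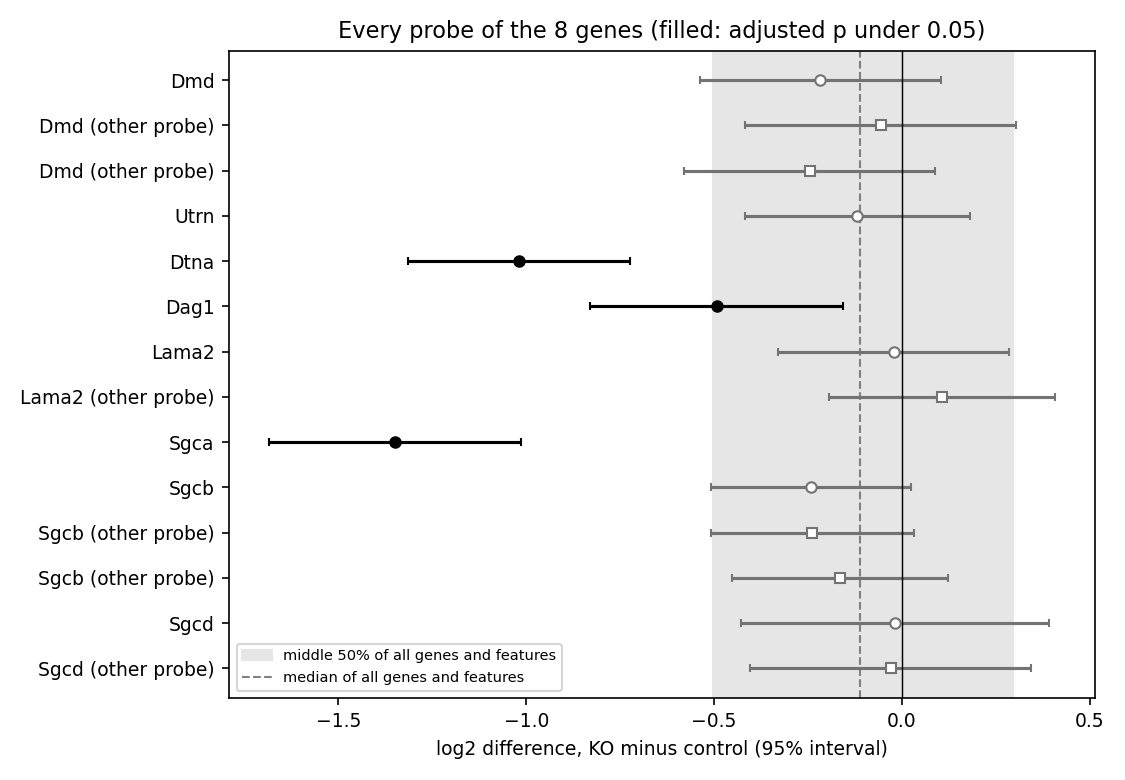
Log2 difference, KO-labelled minus control, for each of the 14 probes with its 95% interval. Filled points passed an adjusted p of 0.05, circles are the probes that stand for their gene and squares the other probes, and the grey band covers the middle 50% of all genes and features, from -0.50 to 0.30. Of the 14 probes, those of Sgca and Dtna lie well outside this band and that of Dag1 at its edge.

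The sarcoglycans changed unequally. Sgca (NM_009161) encodes alpha sarcoglycan, the member found almost only in striated muscle. The log2 signals of Sgca were 3.54, 3.89 and 3.82 in KO-labelled hearts, against 5.19, 5.0 and 5.11 in control hearts. The gap between the highest KO-labelled and the lowest control heart was wider than the range of either group. Sgca was 2.55-fold lower in KO-labelled hearts, a log2 difference of -1.35 ± 0.14 with an interval of -1.68 to -1.02 (limma, adjusted p = 0.00235). This lay at the 4.50th percentile of the differences of all genes and features, with Dtna at the 8.83rd and Dag1 at the 25.4th.

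Sgcb (NM_011890), beta sarcoglycan, is a core subunit on which assembly of the complex depends. The log2 signals of its main probe were 3.85, 3.74 and 3.77 in KO-labelled hearts, against 4.08, 3.95 and 4.06 in control hearts. All 3 KO-labelled hearts lay below all 3 control hearts, as in 33.1% of all genes and features. The difference of -0.24 ± 0.11 did not pass (interval -0.50 to 0.02, adjusted p = 0.119). The other 2 Sgcb probes differed by -0.24 and -0.17, and neither passed (adjusted p = 0.137 and 0.308 over all probes). On the last of these the groups overlapped, with KO-labelled heart 3 at 3.77 above control heart 2 at 3.73.

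Sgcd (NM_011891), delta sarcoglycan, is the other core subunit, and its loss causes cardiomyopathy in hamsters. Its log2 signals were 1.55, 1.14 and 1.60 in KO-labelled hearts, against 1.56, 1.25 and 1.54 in control hearts. Heart 2 was the lowest of its group in both, and the groups overlapped across their ranges. The difference was -0.02 ± 0.17 (interval -0.43 to 0.39, adjusted p = 0.939), and the second probe differed by -0.03. Its sign, like that of Lama2, turned with the scaling.

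Sgce, the gene of epsilon sarcoglycan, which takes the place of the alpha subunit in smooth muscle and other tissues, did not pass and differed by 0.41 ± 0.15 (adjusted p = 0.0709).

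Set against the other sarcoglycans within each array, Sgca was lower in every KO-labelled heart than in any control heart. Sgca minus Sgcb was -0.32, 0.15 and 0.05 in KO-labelled hearts, against 1.11, 1.05 and 1.05 in control hearts, a 2.16-fold lower ratio. Sgca minus Sgcd was lower by a log2 step of -1.33. Neither ratio overlapped between groups, each at the smallest possible exact p of 0.1. Between the core subunits the groups overlapped, with Sgcb minus Sgcd differing by -0.22 (exact p = 0.3). Sgce minus Sgca was 3.39-fold higher in KO-labelled hearts, again without overlap (exact p = 0.1). In all, 9 ratios between genes of the complex were compared, and with 3 hearts against 3 none could pass 0.05 before or after adjustment.

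**Figure D3:**
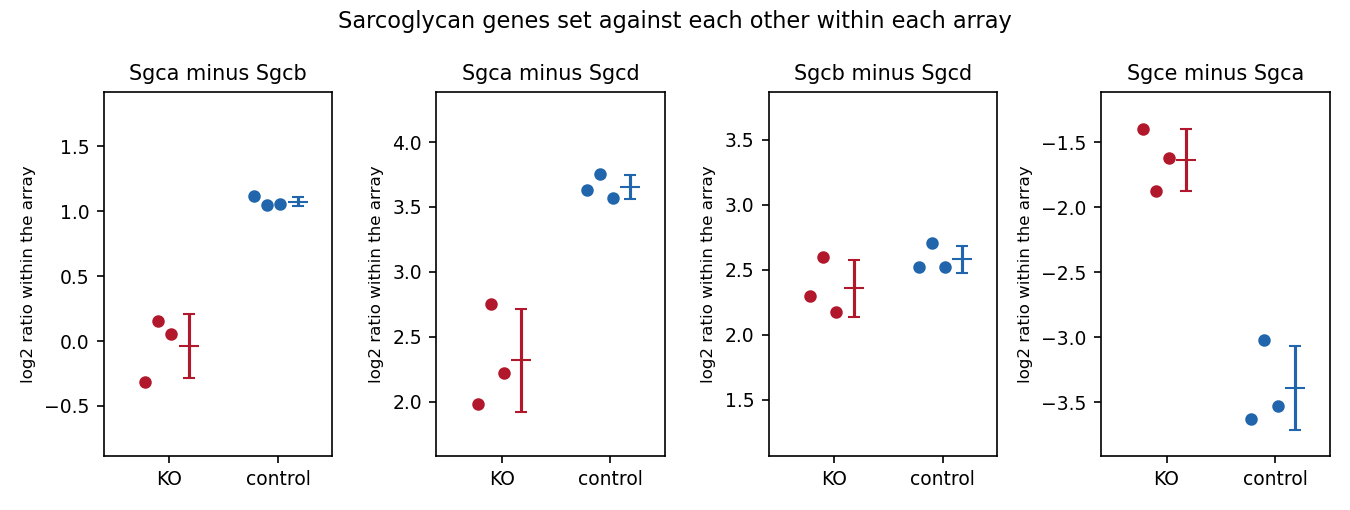
Log2 ratios between sarcoglycan genes within each array, 1 point per heart, with KO-labelled hearts left and control hearts right in each panel and crosses and bars for the mean and SD of 3 hearts. The ratios of Sgca to Sgcb and to Sgcd are lower in every KO-labelled heart, that of Sgcb to Sgcd overlaps, and that of Sgce to Sgca is higher. The offset of a ratio depends on the probes, so that only its shift between groups can be read.

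Markers of the cell types in the tissue also differed between the groups. Of the tested markers, 66.7% were called for cardiomyocytes, 66.7% for fibroblasts, 0% for endothelium and 70% for smooth muscle. The share was 90.9% for macrophages, 16.7% for erythroid cells, 100% for skeletal muscle and 71.4% for Schwann cells, against 39.1% of all genes and features. All 12 cardiomyocyte markers were well above background on all 6 arrays, 8 were lower and none higher in KO-labelled hearts (none higher at an unadjusted p under 0.05 either), and their median log2 difference was -0.61. Tnni3 (cardiac troponin I) was lower by a log2 step of -1.57 (adjusted p = 0.00317) and Pln (phospholamban) by one of -1.92 (adjusted p = 0.00346). The summed signal of the 12, relative to the 75th percentile, was 7925 to 9764 in KO-labelled hearts, against 11111 to 13454 in control hearts. The count of 8 fell to 3 with quantile or cyclic loess scaling or without KO-labelled heart 1, control heart 1 or control heart 3, and to 4 without KO-labelled heart 3. In the heart, dystrophin and alpha sarcoglycan are known mainly from these cells.

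Sgca, Dtna, Dag1, Sgcb and Dmd were also set, within each array, against a cardiomyocyte score, the median of the 12 markers after centring each on its mean. The score itself was lower in KO-labelled hearts by a log2 step of -0.59, without overlap (exact p = 0.1). Sgca minus the score was 4.02, 4.13 and 3.99 in KO-labelled hearts, against 4.71, 4.96 and 4.73 in control hearts, a difference of -0.76 without overlap (exact p = 0.1). Against the same score, Dtna differed by -0.42 (exact p = 0.2) and Dag1 by 0.10 (exact p = 0.5), and both overlapped between groups. Sgcb and Dmd, by contrast, were higher relative to the score in every KO-labelled heart, by 0.35 and 0.38 (exact p = 0.1 each). The score and these comparisons were chosen after the values of the members were known.

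Other cell type markers moved too, and their part in the results on the complex was not tested. Of 12 fibroblast markers, 7 were higher, among them Postn (4.63, adjusted p = 0.00267) and Thy1 (1.31, adjusted p = 0.00391), and Gsn was lower. Their summed signal was 1242 to 1260 in KO-labelled hearts, against 738 to 1068 in control hearts, and the count of 8 called was 5 without KO-labelled heart 3 and 4 without control heart 1 or control heart 3. None of 12 endothelial markers passed in the limma fit and 2 had an unadjusted p under 0.05, namely Tek (-0.69, adjusted p = 0.0666) and Pecam1 (-0.53, adjusted p = 0.0887). Of 11 macrophage markers 7 were higher, led by Adgre1 (1.88) and C1qc (1.12), and 3 were lower, namely Cd163, Itgam and Lyve1. The count of 10 was 5 without KO-labelled heart 3, 4 without control heart 1 and 3 without control heart 3. Of 10 smooth muscle and pericyte markers, Cnn1 (3.06), Tagln and Cspg4 were higher and Kcnj8 (-1.40), Abcc9, Rgs5 and Myh11 lower.

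Of 12 skeletal muscle markers, 8 were below the filter, among them Myh1, Myh2, Myh4 and Myog, and of the rest Tnnt3 (5.65), Acta1 (2.24) and Tnni2 were higher and Pvalb was lower. Tnnt3 was well above background on all 3 KO-labelled arrays and on 2 of the 3 control arrays, so its difference rests on control signal near background, and it ranged from 3.99 to 5.99 over the alternatives. Skeletal muscle is another tissue with a full sarcoglycan complex, and whether it added to the signals of these samples was not tested. Without control heart 1 the count of 4 was 2. Of 7 Schwann cell markers, Prx (1.24), Cnp (0.83), Pmp22 and S100b were higher and 1 was lower, and the count of 5 was 3 without KO-labelled heart 2 or 3 or control heart 1 and 2 without control heart 3. Of 6 erythroid markers Hba-a2 (-0.57, adjusted p = 0.0487) was lower, a call lost without any heart but control heart 2, and Hbb-bs was not called (-0.39). Beyond the leading pair of each marker list, these genes were named after their values were seen.

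The other genes of the complex and its surroundings were counted by role. Of all genes and features, 39.1% were called in either direction. The share was 50% for further components, 35.3% for glycosylation, 68.4% for basement membrane and 40% for integrins. It was 50% for costameric partners, 30.8% for membrane repair and 28.6% for proteases. The counts for glycosylation, integrins, membrane repair and proteases were thus near or below the share of all features. Of 12 further components, 8 passed the filter on dim probes, and 3 of these were lower and 1 higher in KO-labelled hearts. Cav3 (caveolin 3, the muscle caveolin that binds beta dystroglycan) was lower by a log2 step of -0.82 (adjusted p = 0.0194) and Sspn (sarcospan, which binds the sarcoglycans) by one of -0.72 (adjusted p = 0.0237). Sntb2, a syntrophin, was higher by 0.71 (adjusted p = 0.00850), whereas Sntb1 (0.11) did not pass. Nos1, Sgcz, Sntg1 and Sntg2 were below the filter. Without control heart 1 or control heart 3 the count of 4 fell to 2, and Cav3 and Sspn were no longer called (adjusted p 0.0720 to 0.0865). The Cav3 call was also lost without KO-labelled heart 3, and that of Sspn without KO-labelled heart 1. With all hearts kept, Cav3 was lost with normexp background correction (-0.45, limma, adjusted p = 0.0705), with both spike-in scalings and without the filter. Sspn was lost without the filter and with the replicate block.

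Of 18 genes that glycosylate alpha dystroglycan, 17 were tested, 6 were lower in KO-labelled hearts and none was higher (1 was higher at an unadjusted p under 0.05), with a median difference of -0.20. Pomgnt2, which extends the O-mannose core, had log2 signals of 2.63, 3.00 and 3.03 in KO-labelled hearts, against 3.95, 3.64 and 3.69 in control hearts. The groups did not overlap, and Pomgnt2 was 1.83-fold lower (adjusted p = 0.00825). Dpm1, of the mannose donor synthase, differed by -0.70 (adjusted p = 0.0158) and Dolk, the dolichol kinase, by -0.49 (adjusted p = 0.0186). B4gat1, named after its value was seen, was also lower. The count of 6 was 2 without control heart 1 or with spike-in scaling and 3 without KO-labelled heart 3. The calls of Dpm1 and Dolk were lost without control heart 1 or control heart 3 and with spike-in scaling, and that of Dolk also without KO-labelled heart 3.

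The basement membrane list went the other way. Of 21 laminin, collagen and related genes other than Lama2, 19 were tested, and 12 were higher and 1 lower in KO-labelled hearts, with a median of 0.71. Col4a1 and Col4a2, the main type IV collagen chains, were higher by 1.58 (adjusted p = 0.00218) and 1.23 (adjusted p = 0.00299). Col6a1 was higher by 1.35 (adjusted p = 0.00449) and Lamb1, the laminin beta chain, by 0.75 (adjusted p = 0.00615). Lamb3, named after its value was seen, was lower by a log2 step of -1.52. The count of 13 was 7 without control heart 1 and 8 without control heart 3. These genes moved beside the fibroblast markers given above, which include matrix genes.

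Integrins that bind laminin form the parallel link from matrix to cytoskeleton. Of 10 such genes and their adaptors, 3 were higher and 1 lower: Itgb1 by 0.94 (adjusted p = 0.0101), Itga6 by 0.78 (adjusted p = 0.0126), Tln1 (talin) by 0.68 (adjusted p = 0.0151), and Lims1 by -0.59 (adjusted p = 0.0126). Itga7, the integrin alpha chain of muscle, did not pass (-0.07, adjusted p = 0.805). Without control heart 1 the count of 4 was 2, with Lims1 and Tln1 no longer called, and the Tln1 call was also lost without control heart 3.

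Of 16 cytoskeletal and costameric partners, 5 were higher (Actb, Synm, Des, Actg1 and Xirp2) and 3 lower (Cmya5, Ank3 and Ank2). Actb was higher by 1.00 (adjusted p = 0.00323), the intermediate filament genes Synm and Des by 0.97 and 1.05 (adjusted p = 0.00596 and 0.0192), and Cmya5 (myospryn, a costamere protein) was lower by a log2 step of -1.63 (adjusted p = 0.00374). Actg1, Xirp2, Ank2 and Ank3 were named after their values were seen. The count of 8 was 3 without control heart 1 or control heart 3, 4 without KO-labelled heart 3 and 5 with spike-in scaling. The Des call was lost without control heart 1 or control heart 3.

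Of 15 genes of membrane repair and caveolae, 13 were tested, 4 were higher and none lower (2 were lower at an unadjusted p under 0.05): Anxa2 by 1.45 (adjusted p = 0.0126), Anxa1 by 1.13 (adjusted p = 0.0424), Anxa5 by 1.08 (adjusted p = 0.00480) and Bin1 by 0.92 (adjusted p = 0.0105). The annexins are calcium-dependent membrane binders. Of 8 proteases known to cut members of the complex and their inhibitors, 7 were tested, none was lower, also at an unadjusted p under 0.05, and Mmp2, which cuts beta dystroglycan, was higher by 0.78 (adjusted p = 0.0212) and Capn2, a calpain, by 0.44 (adjusted p = 0.0453). Both calls were lost without KO-labelled heart 3, control heart 1 or control heart 3, that of Capn2 also without KO-labelled heart 1 or control heart 2, and Anxa1 was no longer called without any 1 of KO-labelled hearts 1 and 3 and control hearts 1 and 3. With all hearts kept, Anxa1 was lost with median scaling (limma, adjusted p = 0.0544) and with both spike-in scalings. Capn2 was lost with spike-in scaling (limma, adjusted p = 0.0728). Anxa1 and Capn2 were also lost with the replicate block, and Anxa1, Capn2 and Mmp2 without the filter on dim probes.

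**Figure D4:**
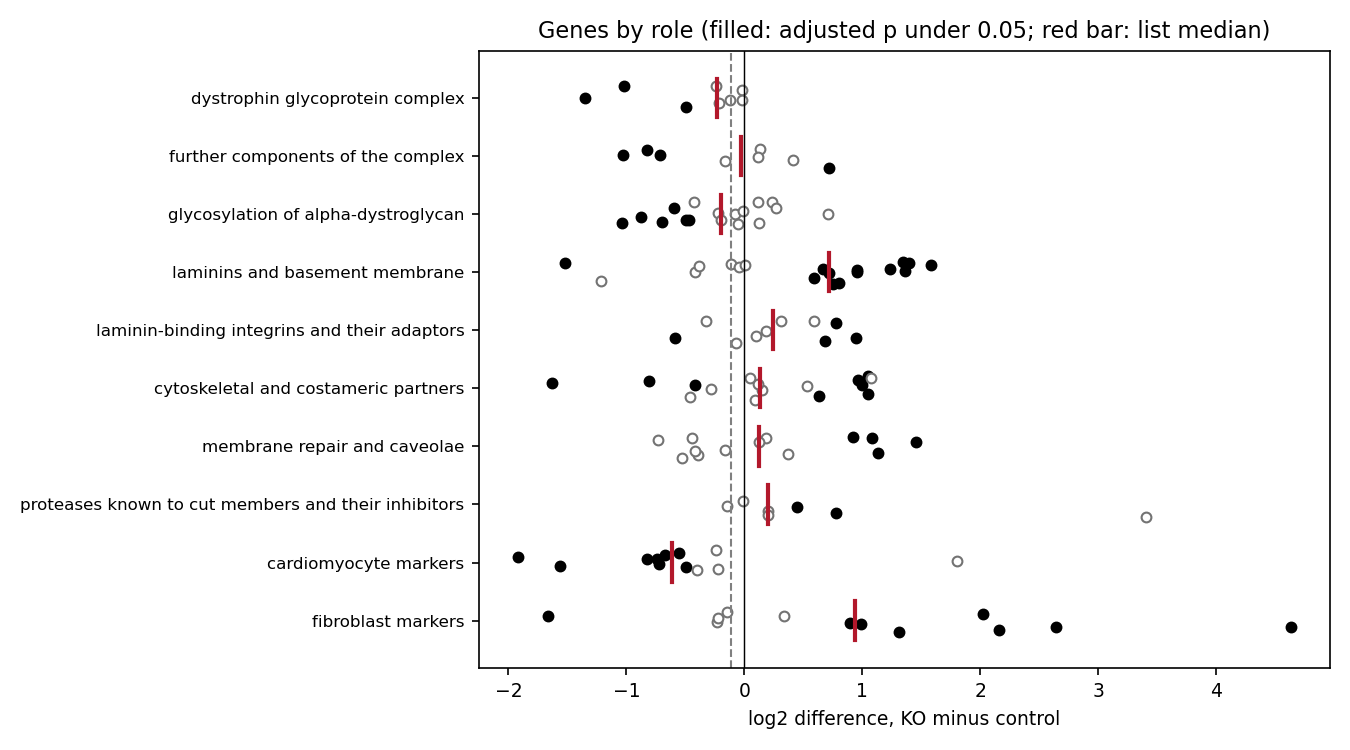
Log2 difference, KO-labelled minus control, of each tested gene in 10 lists, 1 point per gene, filled where the adjusted p was under 0.05. The red bar is the median of the list and the dashed line the median of all genes and features at -0.11. The basement membrane and fibroblast lists lie mostly to the right, the 8 complex genes lie left of 0, and the cardiomyocyte markers do so but for Nppa (1.80, not called).

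Across settings, the calls for Sgca and Dtna held in all 21 alternatives run, with log2 differences of -1.42 to -1.11 for Sgca and -1.08 to -0.72 for Dtna. Sgca, Dtna and Dag1 had 1 probe each, so none of their calls was checked on a second probe. For these genes the mean of probes and the fit of every probe used the same probe again. Dag1 passed in 11 of the 21. Dmd, Utrn and Sgcb passed in 1 each, the fit that weights arrays, and Sgcd and Lama2 in none.

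**Figure D5:**
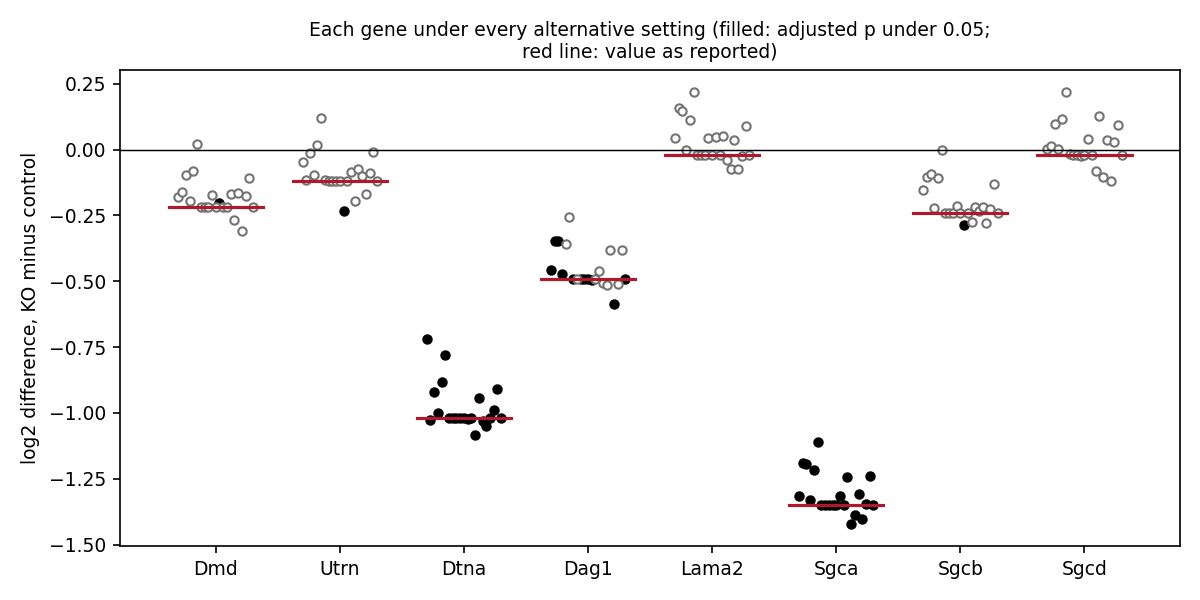
Log2 difference, KO-labelled minus control, of each of the 8 genes under every alternative setting, 1 point per setting, filled where the adjusted p was under 0.05, with a red line at the reported value. The points of Sgca and Dtna are all filled and below -0.70, those of Dag1 are mixed, and those of Sgcd and Lama2 scatter around 0 unfilled.

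Among 13183 named genes, those whose log2 signals followed Dmd most closely over the 6 arrays were Pacsin1 (Pearson r = 0.997), Slc35e2 (0.996) and Agfg2 (0.996). None of these 3 passed between the groups. The closest to Lama2 were Obsl1 (0.977), Prdm11 (0.968) and Dop1a (0.968), also not called. With so few arrays 166 genes exceeded 0.95 with Dmd and 6 with Lama2, all values on an array share its hybridisation and scaling, and under other scalings the correlations fell as low as 0.463 for Slc35e2 and 0.351 for Dop1a.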

How the data were processed

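Scanner files of 6 one-colour arrays, 1 per heart, were used. Per the file headers, the deposited intensity values are background-subtracted signals, not scaled between arrays, from Agilent Feature Extraction (version 11.0.1.1), and the same software set the deposited flags for outlying, saturated and well-above-background spots. The authors' deposited value table of log2 values, for which the submitters' processing notes also name R 3.1.3, served only as an alternative, with a normalization not given in the sources used here.

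The processed signal was averaged over the unflagged spots of a probe on the log2 scale and set relative to its array's 75th percentile. Among 55681 distinct probes, 73 lacked an unflagged spot on some array and were dropped. Accessions were matched to a RefSeq gene table, which named 26551 probes and left 29057 without a symbol. A probe was tested if all 3 arrays of a group had it well above background, and the brightest probe on average stood for its gene. The tests used R 4.3.3, limma 3.58.1 and the package data.table (version 1.17.8), 2-sided, with Benjamini-Hochberg adjustment at 0.05 and 95% intervals from the moderated fit. The number of arrays limits the precision. Tested on simulated data of 20020 genes, the comparison of 3 KO-labelled with 3 control arrays recovered 2% of genes changed by 0.5 on the log2 scale, 54% of those changed by 1, 90% by 2 and 92% by 3. Only 200 genes were changed in that simulation, whereas 7820 genes and features were called in the data. The adjusted threshold was therefore stricter in the simulation, and its shares do not give the power of the comparison reported here. No 2 arrays held identical values.

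The members and the gene lists were chosen with earlier results of these data known. Named genes were all members, the targeted genes, up to 4 passing genes of each further list and the 2 with the smallest p of each marker list, ranked by p, and the 3 genes most correlated with Dmd and with Lama2. Alternatives were background correction (normexp, offset 50, on median rather than mean signals), quantile, median, cyclic loess and spike-in scaling, the deposited value table, other probe filters, the mean of probes or every probe, trend and robust variance, weights per array, a replicate block, fits without each heart in turn and a threshold of 0.01. Spike-in scaling on bright spots, centring on the median of all genes and within-array ratios were added after seeing the data. Probe positions were not analysed here. Some genes of these lists enter the counts and are not reported here by name.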

Additional observations from a re-analysis of the deposited data

How the results depend on the processing

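Sgca and Dtna kept their direction and their call under all 21 alternatives run, each on its only probe. Dag1 stayed lower under every alternative but lost its call with spike-in scaling (-0.36, or -0.26 on bright spots only), without a filter on dim probes (-0.49), with the replicate block (-0.49, adjusted p = 0.0824) and after centring on the median of all genes (-0.38). It ranged from -0.59 to -0.38 when single hearts were left out. With array weights, which called 13710 genes and features, Dmd (-0.20), Utrn (-0.23) and Sgcb (-0.29) were called too, so that 6 members passed. Without single hearts 2 to 3 members passed.

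The genes with differences near 0 turned sign. Dmd was 0.021 with bright spike-ins, and Utrn 0.016 with spike-ins and 0.12 with bright ones. Sgcd was 0.000687 with normexp, 0.014 with quantile, 0.096 with cyclic loess, 0.000777 with median, 0.12 with spike-in and 0.22 with bright spike-in scaling, 0.041 with array weights and 0.092 after centring, and -0.12 to 0.13 without single hearts. Its second probe was 0.022 with normexp. Lama2 was 0.046 with normexp, 0.16 with quantile, 0.14 with cyclic loess, 0.11 with spike-in and 0.22 with bright spike-in scaling, 0.042 for the mean of probes, 0.048 with array weights and 0.089 after centring, and -0.075 to 0.051 without single hearts. The cause was not tested.

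Of all genes and features, 7820 passed as reported, 4345 without the filter (with 37174 tested), 4854 with the replicate block, 3093 at a threshold of 0.01 and 3987 to 8673 without single hearts. Of the genes of the 7 further lists, 41 passed as reported, 20 without the filter, 26 with the block, 15 at 0.01 and 19 to 45 without single hearts. Same-numbered hearts of the 2 groups correlated at -0.15 to -0.10 in their deviations, and none correlated best with its own number, so the block rests on a number alone. The share of called features that were higher in KO-labelled hearts was 41.1% as reported, 55.3% with cyclic loess, 59.5% with bright spike-in scaling and 54.1% after centring. These shifted the median of all differences by 0.14, 0.24 and 0.11, and spike-in scaling by 0.14. Over all alternatives, the count of called genes ranged from 2 to 6 among further components (4 as reported), 2 to 10 for glycosylation (6), 7 to 15 for basement membrane (13), 0 to 7 for integrins (4), 3 to 9 for costameric partners (8), 1 to 9 for membrane repair (4) and 0 to 4 for proteases (2). Among markers it ranged from 2 to 12 for cardiomyocytes (8), 3 to 9 for fibroblasts (8), 0 to 4 for endothelium (0), 4 to 9 for smooth muscle (7), 1 to 11 for macrophages (10), 0 to 5 for erythroid cells (1), 2 to 4 for skeletal muscle (4) and 2 to 7 for Schwann cells (5). Signal over background set no limit on the members, all of whose probes stood well above background.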
